A study of Mus musculus with 15 samples.

Results

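Glycolysis splits glucose into pyruvate in the cytosol, and 10 of its enzymes are described here in single mouse proximal tubules and in whole kidney. The members are Hk1, Hk2, Pfkl, Pfkm, Pfkp, Aldoa, Pgam1, Pkm, Ldha and Ldhb. They were chosen by gene symbol, and each matched exactly 1 of the 47069 rows of the deposited table. The series holds 12 RNA-Seq libraries of single microdissected tubules labelled PTS2 (the S2 segment is the middle part of the proximal tubule) and 3 libraries of whole kidney. All came from male C57BL/6 mice aged 2 months, and the labels name no treatment and no genotype other than the strain. The PTS2 libraries form 3 sets named m1, m2 and m3 with 4 replicate numbers each, and the labels say neither what the letter m stands for nor what the replicate number marks. They do not state that libraries came from separate animals, so a p-value measures the spread between these libraries only. Values are TPM, which are scaled to transcript length and to a common total of 1000000. They can be compared between genes, but they keep no record of sequencing depth, so no counting error can be given.

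Hexokinase traps glucose in the cell by phosphorylating it, phosphofructokinase makes the committed step, and pyruvate kinase makes the last step to pyruvate. These reactions are the ones that are not readily reversed, and gluconeogenesis goes around them with other enzymes. Aldolase and phosphoglycerate mutase work in both directions, and lactate dehydrogenase interconverts pyruvate and lactate. The proximal tubule is known for making glucose and for burning fatty acids, lactate and glutamine, while the distal nephron is known for a larger glycolytic capacity.

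The label PTS2 was compared with marker genes of 18 cell types and segments. The 8 markers of all proximal segments summed to between 18494 and 26274 TPM in the tubules and to between 17985 and 19020 TPM in whole kidney. Markers of S1 were at 5.34% of the kidney level at the tubule median, those of S2 at 86.9% and those of S3 at 270.3% (Slc7a13, Slc22a7 and Slc5a1). The 2 markers of S2 differed: Slc22a6 had a median of 591 TPM in the tubules and 511 TPM in kidney, and Slc22a8 of 52.9 and 269.7 TPM, with every tubule below every kidney library. The S3 markers were thus above the kidney level in tubules labelled as S2. Of the other markers, the thick ascending limb (a distal segment) was at 0.431% of the kidney level at the median, the distal convoluted tubule at 0.203%, intercalated cells at 0.159% and red blood cells at 0.215%. Replicate 3 of set m3 stood apart, with a thick ascending limb sum of 1408 TPM, or 58.9% of the kidney level, where the other 11 tubules reached at most 54.97 TPM. The TPM fold differences of Hk1, Pkm and Aldoc are given with and without this library, and other results include it unless stated. Endothelial markers were at 13.8% of the kidney level. The macrophage sum was at 53.8%, most of it from 1 of its 5 markers. The other 4 were wholly below kidney, such as C1qb with a median of 3.98 TPM in the tubules and 37.2 TPM in kidney. In whole tissue, fewer cells of a type and less RNA per cell cannot be told apart, which holds for each comparison with whole kidney below.

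The regulatory DNA of 3 members is shown because they span the contrasts that follow: Ldha was higher in the tubules, Ldhb was lower, and Hk1 had the largest difference. Each sequence is the 250 bases before a RefSeq transcript start, read 5′ to 3′ on the gene's strand, with the letters ACGTG or its reverse complement CACGT in capitals. ACGTG is part of the sites bound by hypoxia-inducible factors and by E-box proteins. The build is GRCm38.p6.
Ldha, chr7:46845554-46845803, plus strand: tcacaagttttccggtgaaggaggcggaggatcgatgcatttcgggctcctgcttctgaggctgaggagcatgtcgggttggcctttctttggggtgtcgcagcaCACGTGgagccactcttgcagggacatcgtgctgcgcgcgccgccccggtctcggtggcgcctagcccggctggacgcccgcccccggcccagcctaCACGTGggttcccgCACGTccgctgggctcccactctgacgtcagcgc
Ldhb, chr6:142507958-142508207, minus strand: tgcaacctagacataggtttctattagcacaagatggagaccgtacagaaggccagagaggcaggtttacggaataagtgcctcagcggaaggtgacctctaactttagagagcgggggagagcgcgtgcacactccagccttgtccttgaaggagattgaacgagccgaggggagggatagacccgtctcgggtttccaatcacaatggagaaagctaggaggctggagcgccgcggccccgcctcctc
Hk1, chr10:62379909-62380158, minus strand: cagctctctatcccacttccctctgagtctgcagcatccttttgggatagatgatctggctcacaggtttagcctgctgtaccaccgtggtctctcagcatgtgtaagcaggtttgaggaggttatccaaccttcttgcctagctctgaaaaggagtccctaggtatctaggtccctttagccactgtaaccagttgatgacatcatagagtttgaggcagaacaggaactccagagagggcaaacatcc
The Ldha window shown held 5 matches to ACGTG on either strand, in which CACGTG counts on both strands. The Ldhb and Hk1 windows shown held 0. Ldha and Hk1 have 2 RefSeq windows each, of which 1 is shown. The other Ldha window, chr7:46846832-46847081, held 0 matches, as did the other Hk1 window. The difference between Ldha and the other 2 genes thus depends on the Ldha window used. Over all 32851 RefSeq windows of this length, 16.6% held at least 1 match. The 10 members have 18 such windows, of which 8 held a match, in 6 genes (Hk2, Pfkm, Aldoa, Pgam1, Pkm and Ldha). The 2 Aldoa windows with a match overlap and hold the same site, so the 8 windows are not independent. The same 2 windows are counted for GGGCGG below. The GC box GGGCGG, on either strand, was found in 6 windows of 5 members, against 32.7% of all windows, and the TATA box letters TATAAA, also on either strand, in 0, against 12.4%. A match is a description of the letters only.

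In PTS2 tubules the 10 enzymes spanned a wide range of levels. Ldha was highest at 2104 ± 112 TPM (SD, n = 12), then Ldhb at 1572 ± 237 TPM and Aldoa at 1017 ± 60.3 TPM. Pgam1 followed at 56.5 ± 5.35 TPM. Pkm (27.1 ± 13.3 TPM), Pfkl (26.3 ± 5.59 TPM) and Pfkp (24.7 ± 10.2 TPM) did not differ from each other beyond their spread. Pfkm was at 8.78 ± 0.995 TPM, Hk1 at 1.56 ± 2.74 TPM and Hk2 at 0.0442 ± 0.0385 TPM. Thus Aldoa, Ldha and Ldhb stood far above the other 7 members. The values of Pgam1 overlapped those of Pkm only through replicate 3 of m3, where Pkm was at 54.6 TPM. In the other 11 tubules Pkm was at most 39.4 TPM and Pgam1 at least 48.1 TPM. In whole kidney the order was Ldhb at 2087 ± 56.1 TPM (SD, n = 3), Ldha at 1618 ± 86.5 TPM and Aldoa at 1305 ± 46.8 TPM, followed by Pkm at 167 ± 6.31 TPM and Pgam1 at 59.01 ± 2.97 TPM. Pfkp (49.0 ± 7.81 TPM), Hk1 (46.1 ± 3.59 TPM) and Pfkl (44.8 ± 2.47 TPM) lay within their spread of each other, above Pfkm at 22.1 ± 2.28 TPM. Hk2 was listed between 0.04 and 0.61 TPM in kidney.

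**Figure D1:**
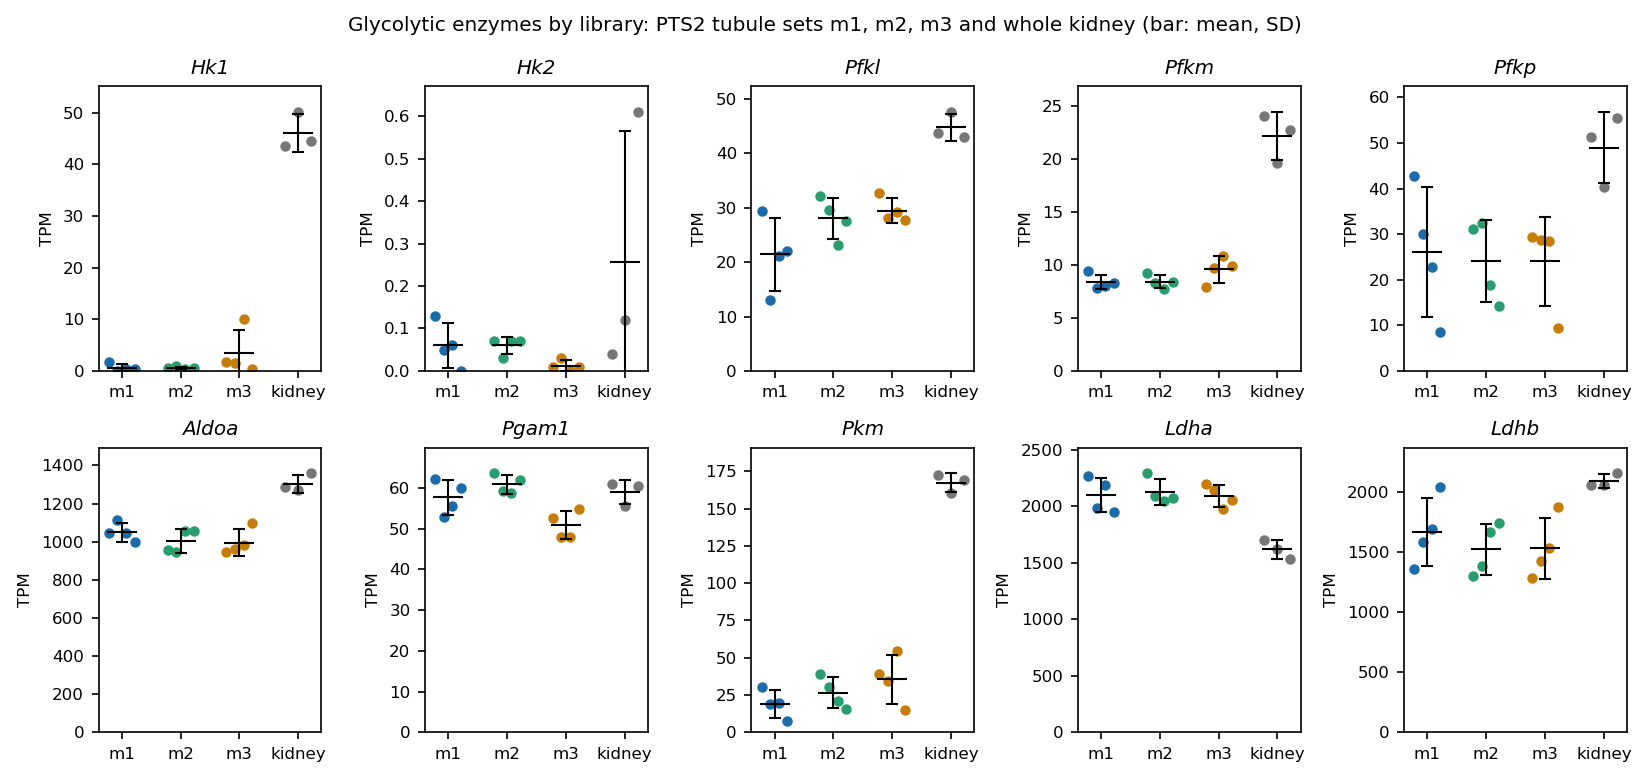
TPM (vertical axis, linear from 0) of the 10 glycolytic enzymes in each library of the PTS2 sets m1, m2 and m3 and of whole kidney; points are libraries, ordered by replicate number within a group, and bars are the mean and SD. Hk1, Pfkl, Pfkm, Aldoa, Pkm and Ldhb show every tubule below every kidney library, Ldha shows every tubule above, and Pfkp, Pgam1 and Hk2 overlap.

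PTS2 tubules were then compared with whole kidney, in which the proximal tubule is 1 of several segments. Of the 10 members, 9 reached the mean of 1 TPM needed for testing, all except Hk2. With limma on log2(TPM + 1) at an adjusted p under 0.05, 8 were called, where 51.2% of all 12039 genes tested were called in either direction. Of these, 7 were lower in PTS2, where 41.5% of all genes were lower, and 1 was higher, where 9.68% of all genes were higher. Pgam1 did not pass. The median log2 difference of the 9 was -0.78, against -0.27 for all genes tested. For 6 members every tubule lay below every kidney library, as for 32% of all genes, and for 1 member every tubule lay above, as for 5.76%. A log2 difference below -1 was called for 4 members (Hk1, Pkm, Pfkm and Pfkp), and for 13.8% of all genes, and one above 1 for 0 members and for 1.11% of all genes. The scaling of the libraries mattered for the small differences and for those near -1. Pfkm was at -0.97 with median-of-ratios rescaling and -0.83 with quantile normalization, called in both, while Pfkp was called in neither. Hk1 and Pkm stayed called below -1 in both. With median-of-ratios rescaling the median of all genes moved to 0.00114, and 4 members (Hk1, Pkm, Pfkm and Pfkl) were called lower. In that fit 5594 genes were called, 50.5% of them higher in PTS2. The 41.5% given above is therefore not the background for these 4 members.

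Hk1 (ENSMUSG00000037012, GENCODE M21 on GRCm38, chr10:62268855-62379908, minus strand) encodes the broadly expressed hexokinase that binds to mitochondria. In set m1 it was at 1.76, 0.01, 0.36 and 0.43 TPM in replicates 1 to 4. In set m2 it was at 0.51, 0.94, 0.44 and 0.58 TPM, and in set m3 at 1.68, 1.45, 10.06 and 0.45 TPM. Whole kidney held 43.5, 50.2 and 44.6 TPM. No tubule came near a kidney library, and the highest tubule was the library with thick ascending limb markers. The log2 difference was -4.56 ± 0.49 (SE, limma adjusted p = 6.88e-07), and the TPM means were 29.6-fold apart. Without replicate 3 of m3 the means were 58.9-fold apart, since the tubule mean was then 0.783 TPM, and the log2 difference was -4.79 (limma adjusted p = 2.59e-10). The added constant of 1 TPM compresses a low gene, and with 0.1 TPM the log2 difference was -5.73.

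Hk2 (chr6:82725025-82774454, minus strand), the hexokinase known for induction in muscle and in tumours, was listed at 0.13 TPM or less in each tubule. It was below the level for testing in kidney too, so no fold is given. The other glucose-phosphorylating enzymes of the pathway list, Hk3 and Hkdc1, were also too low to test. The summed level of Hk1, Hk2, Hk3 and Hkdc1 had a median of 0.655 TPM in the tubules and of 46.4 TPM in whole kidney.

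**Figure D2:**
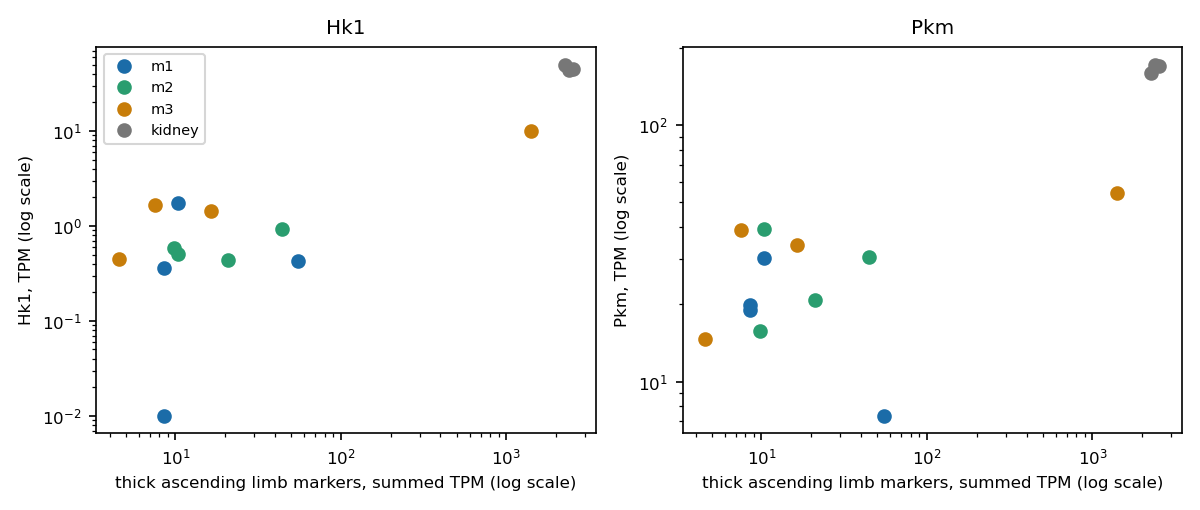
Hk1 (left) and Pkm (right) in TPM against the summed TPM of 4 thick ascending limb markers, both axes on a log scale, with 1 point per library coloured by PTS2 set or whole kidney. Replicate 3 of m3 lies apart at a marker sum of 1408 TPM, with Hk1 at 10.06 TPM and Pkm at 54.6 TPM, the highest of the 12 tubules for both genes.

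Pkm (ENSMUSG00000032294, chr9:59656368-59679375, plus strand) encodes the pyruvate kinase of most tissues apart from liver and red cells. Its M1 and M2 splice forms share 1 gene row and cannot be told apart here. It was at 30.3, 18.97, 19.9 and 7.35 TPM in m1, at 39.4, 30.7, 20.8 and 15.7 TPM in m2, and at 38.98, 34.1, 54.6 and 14.7 TPM in m3. Whole kidney held 172, 160.2 and 169 TPM. No tubule overlapped kidney, and replicate 3 of m3 was again the highest tubule. The log2 difference was -2.74 ± 0.41 (SE, limma adjusted p = 3.29e-05), a 6.17-fold difference of the TPM means, or 6.79-fold without that library. Pklr, the pyruvate kinase of liver and red cells, was at 6.97 ± 2.18 TPM in the tubules and 9.12 ± 1.35 TPM in whole kidney and did not pass (limma adjusted p = 0.160). Pkm therefore made up 77.1% ± 8.51 (SD, n = 12) of the summed TPM of Pkm and Pklr in the tubules and 94.8% ± 0.582 (SD, n = 3) in whole kidney. Without replicate 3 of m3 the tubule share was 75.8% ± 7.63 (SD, n = 11).

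The 3 phosphofructokinase genes encode the liver (Pfkl, chr10:77986947-78010083, minus strand), muscle (Pfkm, chr15:98092589-98132451, plus strand) and platelet (Pfkp, chr13:6579768-6648777, minus strand) subunits of the same tetrameric enzyme. Their sum was 59.9 ± 13.2 TPM (SD, n = 12) in the tubules and 116 ± 7.34 TPM (SD, n = 3) in whole kidney. Pfkm ranged from 7.74 to 10.8 TPM over the tubules with a median of 8.34 TPM, and was at 24.04, 19.6 and 22.7 TPM in whole kidney. Its tubule values were the most even of the 3 and lay clear of kidney, and the log2 difference was -1.24 ± 0.11 (SE, limma adjusted p = 5.13e-08). Pfkl ranged from 13.06 to 32.8 TPM with a median of 27.96 TPM, against 43.8, 47.7 and 43.02 TPM in kidney, and its log2 difference was -0.78 ± 0.19 (limma adjusted p = 0.00314).

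Pfkp was the most variable of the 3 among tubules. It was at 42.7, 30.1, 22.8 and 8.52 TPM in m1, at 31.1, 32.5, 18.8 and 14.2 TPM in m2, and at 29.4, 28.8, 28.4 and 9.41 TPM in m3. Whole kidney held 51.3, 40.3 and 55.4 TPM, so the highest tubule overlapped the lowest kidney library. The log2 difference was -1.08 ± 0.39 (SE, limma adjusted p = 0.0302). This call was lost with median-of-ratios rescaling (adjusted p = 0.109), quantile normalization (0.0765), no filter on low values (0.0583), and without whole kidney replicate 1 (0.0939), 2 (0.0538) or 3 (0.110). Of the summed phosphofructokinase TPM, Pfkp held 39.9% ± 11.5 in PTS2 (SD, n = 12) and 42.1% ± 4.21 in kidney (SD, n = 3), Pfkl 44.8% ± 9.20 and 38.9% ± 4.75, and Pfkm 15.2% ± 3.34 and 19.1% ± 0.999. These shares overlapped between tubules and kidney.

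Aldoa (ENSMUSG00000030695, chr7:126795234-126800751, minus strand) encodes the aldolase of muscle and most other tissues. It ranged from 944 to 1117 TPM in the tubules with a median of 1021 TPM, and was at 1286, 1271 and 1358 TPM in kidney. The groups did not overlap, and the log2 difference was -0.36 ± 0.06 (SE, limma adjusted p = 0.000131). The difference is close to the median of all genes and was no longer called with median-of-ratios rescaling (-0.07, adjusted p = 0.552). With quantile normalization it was -0.52 and called (limma adjusted p = 9.54e-07). Aldoc, the brain form, was lower in PTS2, at 0.711 ± 1.03 TPM against 16.6 ± 1.54 TPM (log2 difference -3.50 ± 0.34, limma adjusted p = 2.49e-07). Its highest tubule was again replicate 3 of m3, at 3.83 TPM, and the means were 23.3-fold apart with that library and 38.8-fold apart without it.

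Pgam1 (ENSMUSG00000011752, chr19:41911923-41918660, plus strand), the phosphoglycerate mutase of most tissues, was the member with the smallest difference. It ranged from 47.9 to 63.6 TPM with a median of 57.1 TPM in the tubules, around the kidney values of 60.9, 55.6 and 60.5 TPM (log2 difference -0.07 ± 0.09, limma adjusted p = 0.532). With median-of-ratios rescaling and quantile normalization its difference had the other sign, 0.22 and 0.10, and was not called (adjusted p = 0.0531 and 0.322). The muscle form Pgam2 was at 170.04 ± 15.7 TPM in kidney (SD, n = 3) and at 0.557 ± 0.354 TPM in PTS2 (SD, n = 12). Its log2 difference of -6.81 ± 0.20 (SE, limma adjusted p = 4.06e-14) was the largest among the glycolytic genes tested, and its TPM means were 305-fold apart. Pgam1 therefore held 99.01% ± 0.669 of the summed mutase TPM in the tubules and 25.8% ± 1.02 in kidney.

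The lactate dehydrogenase pair went opposite ways. Ldha (ENSMUSG00000063229, chr7:46841475-46855627, plus strand) encodes the muscle-type subunit and Ldhb (ENSMUSG00000030246, chr6:142490249-142507957, minus strand) the heart-type subunit of the same tetramer. Ldha ranged from 1952 to 2289 TPM in PTS2 with a median of 2081 TPM, above the kidney values of 1702, 1621 and 1530 TPM. Its log2 difference was 0.38 ± 0.06 (SE, limma adjusted p = 7.4e-05), and it was 0.67 with median-of-ratios rescaling and 0.32 with quantile normalization, past the threshold in both. Ldhb ranged from 1285 to 2035 TPM in PTS2 with a median of 1560.1 TPM, and was at 2058, 2052 and 2152 TPM in kidney. Its groups did not overlap, although the highest tubule came close, and its log2 difference was -0.42 ± 0.12 (limma adjusted p = 0.00953). With median-of-ratios rescaling it was -0.13 and not called (adjusted p = 0.498). With quantile normalization it was -0.51 and called (limma adjusted p = 0.00592).

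Ldhc, the testis form, was too low to test. The sum of Ldha and Ldhb was 3676 ± 181 TPM in PTS2 (SD, n = 12) and 3705 ± 48.02 TPM in kidney (SD, n = 3). With TPM as deposited the pair thus differed in its balance and not beyond the spread in its sum. The sum depends on the scaling and was not computed under the others. The Ldha share, which does not depend on scaling between libraries, ranged from 48.96% to 63.8% in the tubules with a median of 56.3%, and from 41.5% to 45.3% in kidney. The lowest tubule share, in replicate 4 of m1, was above the highest kidney share.

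**Figure D3:**
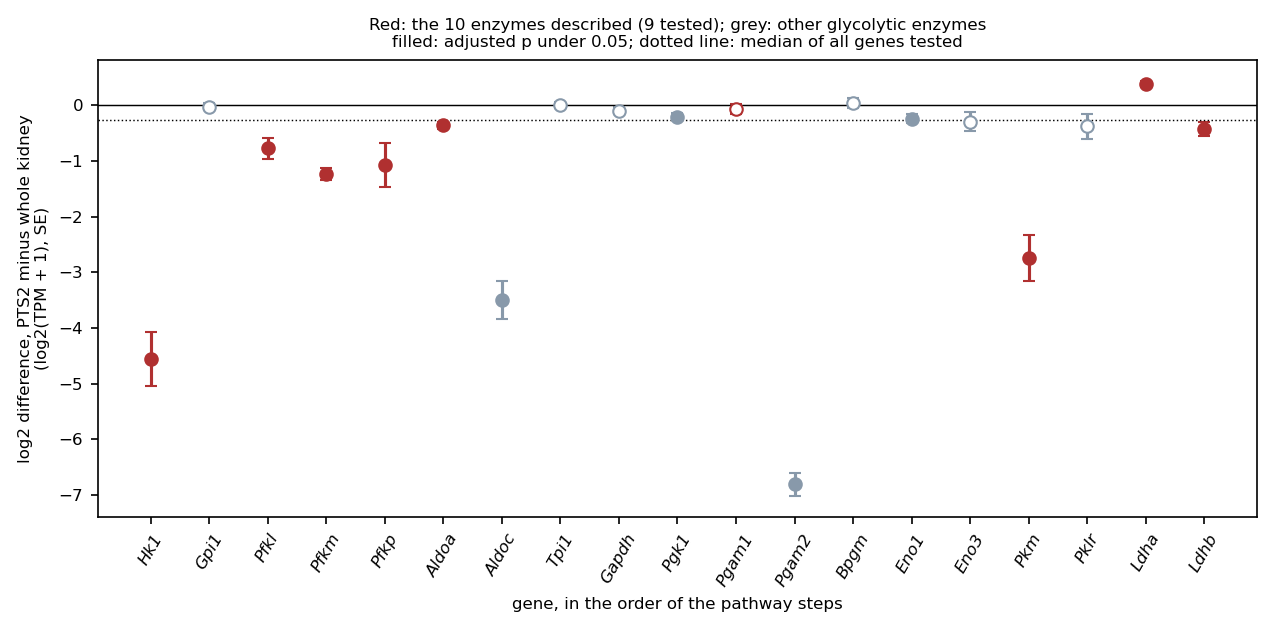
Log2 difference of PTS2 minus whole kidney on log2(TPM + 1), with its SE, for 19 tested glycolytic genes in pathway order; red points are 9 of the 10 enzymes described, grey points other glycolytic genes, and filled points have an adjusted p under 0.05. The dotted line is the median of all genes tested, -0.27; Hk1 at -4.56, Pkm at -2.74, Aldoc at -3.50 and Pgam2 at -6.81 lie far below it, and Ldha at 0.38 above.

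The rest of the pathway was read from lists of genes given in full in the description of the processing. Of 16 other glycolytic genes, 10 were tested, 4 were lower in PTS2 (Aldoc, Pgam2, Eno1 and Pgk1) and 6 did not pass. Of all genes tested, 41.5% were lower and 9.68% higher, so 4 of 10 was near the share of all genes. With median-of-ratios rescaling 2 were lower and 3 higher, and with quantile normalization 5 and 2. The 41.5% and 9.68% are not the background for these 2 fits, here or in the lists below. Of all calls, 50.5% and 64.7% were higher in them, against 18.9% with TPM as deposited. Tpi1, Gapdh and Gpi1, which carry out reversible steps, did not pass with TPM as deposited, but their calls depended on scaling. Median-of-ratios rescaling gave Tpi1 (0.29, limma adjusted p = 0.00107) and Gpi1 (0.27, limma adjusted p = 0.0121) as higher. Quantile normalization gave Tpi1 (-0.23, limma adjusted p = 0.0011) and Gapdh (-0.27, limma adjusted p = 0.00225) as lower. The values that follow are TPM as deposited. Tpi1 was at 1073 ± 40.1 TPM in the tubules and 1072 ± 28.8 TPM in kidney (log2 difference 0.00087, limma adjusted p = 0.989). Gapdh was at 1305 ± 87.04 and 1398 ± 40.7 TPM (limma adjusted p = 0.195). Gpi1, which follows hexokinase, was at 286 ± 21.1 and 291 ± 2.10 TPM (limma adjusted p = 0.780).

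Of 12 regulators of glycolytic flux, 11 were tested, 6 were lower and 1 was higher, where 41.5% and 9.68% of all genes were. The counts were 4 and 2 with median-of-ratios rescaling, and 4 and 4 with quantile normalization. Pfkfb3, which makes the activator of phosphofructokinase, was at 1.05 ± 0.451 TPM in the tubules and 3.86 ± 0.417 TPM in kidney (log2 difference -1.28, limma adjusted p = 6.97e-05). Pdk1, a kinase that turns off pyruvate dehydrogenase, was at 3.58 ± 1.22 and 11.7 ± 1.47 TPM (log2 difference -1.52, limma adjusted p = 3.14e-05). Pdp1, the phosphatase that turns it on again, was at 1.79 ± 0.883 and 6.78 ± 0.572 TPM (log2 difference -1.56, limma adjusted p = 6e-04). These 3 were lower under each scaling tried.

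Of the 7 genes of pyruvate dehydrogenase and the mitochondrial pyruvate carrier, 1 was lower and 1 higher. Here and for the lists that follow, the shares of all genes were 41.5% lower and 9.68% higher. Of 7 gluconeogenic genes, 2 were lower (Fbp2 and Pck2) and 0 higher by limma, and 1 of those with a higher mean, Fbp1, had an unadjusted p of 0.0408. Of 7 genes of the pentose phosphate pathway, 6 were tested, with 1 lower and 3 higher. With median-of-ratios rescaling these counts of lower and higher genes were 0 and 5, 1 and 2, and 1 and 4, and with quantile normalization 2 and 0, 1 and 0, and 1 and 3. Fbp1, the gluconeogenic enzyme opposite phosphofructokinase, was at 3289 ± 163 TPM in the tubules and 3008 ± 157 TPM in kidney (limma adjusted p = 0.0735), so it stood far above the 59.9 TPM of the summed phosphofructokinases. Pck1 was at 1859 ± 289 and 1935 ± 812 TPM (limma adjusted p = 0.984).

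Among the 3 PTS2 sets, 0 of the 9 members tested had an adjusted p under 0.05 in limma's F test, where 3.02% of all 11300 genes passed. At an unadjusted p under 0.05 there were 2 members, Pgam1 and Pfkl, where 16.4% of all genes passed. Pgam1 had the smaller adjusted p, 0.174, and with median-of-ratios rescaling or quantile normalization it passed (0.0188 and 0.0274). The 3.02% is not the background for those fits, and their share of all genes is not given here. Its mean was 50.8 TPM in m3, 57.7 TPM in m1 and 60.9 TPM in m2. The 4 values in m3 were 52.7, 48.07, 47.9 and 54.8 TPM, and those in m2 were 63.6, 59.2, 58.7 and 62.1 TPM, without overlap. Pgam1 was singled out by its p on the same values, so this adds no separate evidence. The share of all genes without such overlap was not computed.

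Libraries that share a replicate number were then compared, with the set as a block, in a comparison chosen after the data were seen. Of 9 members tested, 3 passed limma's F test over the 4 numbers, where 2.71% of all 11300 genes passed. These were Pfkp (adjusted p = 0.0106), Pkm (adjusted p = 0.0243) and Ldhb (adjusted p = 0.00943). In the contrast of number 4 with number 1, 2 members were lower in number 4, where 3.07% of all genes were, and 1 was higher, where 1.69% were. Pfkp was at 10.7 ± 3.04 TPM in the libraries numbered 4 and 34.4 ± 7.26 TPM in those numbered 1 (SD, n = 3 each, by limma a log2 difference of -1.61 ± 0.21). Pkm was at 12.6 ± 4.57 and 36.2 ± 5.12 TPM (-1.51 ± 0.24). Ldhb ran the other way, at 1884 ± 147 and 1314 ± 39.03 TPM (0.52 ± 0.06). In each of the 3 sets the library numbered 4 had the lowest Pfkp, the lowest Pkm and the highest Ldhb, and these values did not overlap those of the other 9 tubules. These genes were named because they had passed the F test on the same values, so their order adds no separate evidence. The share of all genes with such an order was not computed. The Ldha share was 51.9% ± 2.72 in the libraries numbered 4 and 63.1% ± 0.646 in those numbered 1.

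The other 6 tested members did not pass this test. Pfkm, for example, was at 8.85 ± 0.898 TPM in the libraries numbered 4 and 8.84 ± 0.833 TPM in those numbered 1 (SD, n = 3 each). The share of Pfkp in phosphofructokinase TPM was 23.4% ± 4.29 in the libraries numbered 4 and 45.7% ± 5.77 in those numbered 1. Without a filter on low values, or without the set block, 0 members and 0 genes passed the adjusted threshold. At an unadjusted p under 0.05 limma then gave 4 members and 2871 of 30134 genes without the filter, and 3 members and 1419 of 11300 genes without the block. Leaving out replicate 4 of m1 or of m3 left only Ldhb past the threshold. Pfkp then had an adjusted p of 0.0595 and 0.0541, and Pkm of 0.143 and 0.108. Pkm also missed it without replicate 1 of m1 (0.0637), replicate 1 of m2 (0.0829) or replicate 2 of m3 (0.0505).

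Segment markers moved with the replicate number too. The S2 markers summed to 1022 ± 128 TPM in the libraries numbered 4 and 481 ± 193 TPM in those numbered 1, and the S3 markers to 2478 ± 371 and 3669 ± 90.0 TPM (SD, n = 3 each). The 4 principal cell markers summed to between 21.5 and 50.5 TPM and between 7.94 and 17.3 TPM. The 5 macrophage markers summed to between 23.7 and 41.8 TPM and between 47.9 and 77.2 TPM, a difference that came from the 1 marker holding most of the sum. The other 4 (C1qa, C1qb, Adgre1 and Cd68) had higher medians in the libraries numbered 4, such as 4.33 TPM against 3.35 TPM for C1qb, with ranges that overlapped. The part of these markers in the enzyme differences was not tested. Thick ascending limb markers summed to between 4.57 and 54.97 TPM and between 7.52 and 10.3 TPM. Among the libraries numbered 4 and 1 their highest value, in replicate 4 of m1, came with the lowest Pkm of all tubules. Over all tubules their highest value, 1408 TPM in replicate 3 of m3, came with the highest Pkm, 54.6 TPM.

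**Figure D4:**
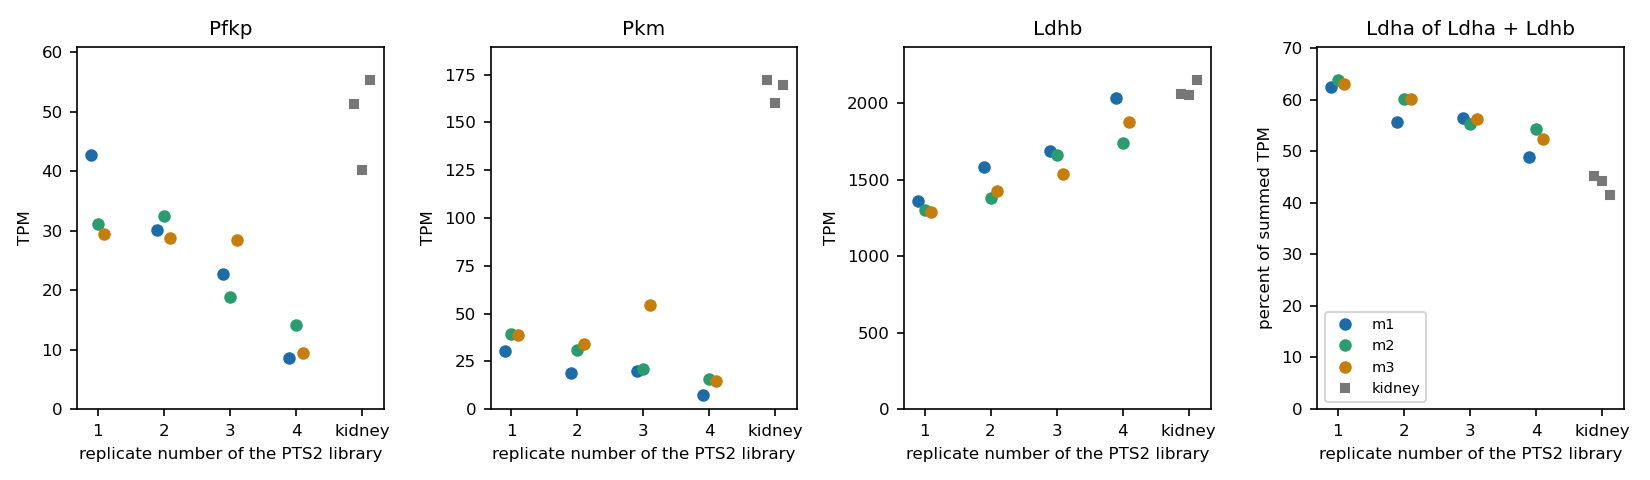
TPM of Pfkp, Pkm and Ldhb and the Ldha percent of the summed Ldha and Ldhb TPM (vertical axes, linear from 0) by replicate number of the PTS2 library, coloured by set, with whole kidney as grey squares. In the libraries numbered 4, Pfkp was at most 14.2 TPM, Pkm at most 15.7 TPM and Ldhb at least 1741 TPM, each outside the range of the other 9 tubules. These genes are shown because they passed the F test on the same values.

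Rows for pseudogenes and retrogenes of the members could take reads from them. They were small: Pgam1-ps2 had a mean of 0.797 TPM in the tubules and 1.14 TPM in kidney, and Ldha-ps2 of 0.632 and 0.497 TPM. Hk1os, annotated on the strand opposite Hk1, had a mean of 0.050 TPM in the tubules and 1.21 TPM in kidney, and reads of the pair cannot be told apart if the counting did not use strand.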

How the data were processed

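Gene expression was measured by RNA-Seq of polyA RNA, reverse transcribed and amplified with the SMART-Seq V4 kit, per the labels' protocols. The authors deposited 1 table of TPM with 1 column per library; each column sums to 1000000 apart from rounding. STAR 2.5.1b, RSEM 1.2.31 and the build GRCm38.p5 are named in the submitters' processing notes, and the annotation release is not given in the sources used here. A further 4 columns hold summary values of the authors and were left out. No 2 columns were identical. Depth is unknown, so no count test or interval was computed.

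The tests used limma 3.58.1 (R 4.3.3, trend option) with log2(TPM + 1) values, a scale that understates changes of low genes. A gene was kept if it averaged 1 TPM or more in the libraries of the fit, p-values were Benjamini-Hochberg adjusted over all of them, and the threshold was 0.05. For PTS2 against whole kidney the set was a correlated block (correlation 0.0669). Sets and replicate numbers were compared with F tests. On simulated data with 200 genes changed by a log2 difference of 1 among 12039, 172, 155 and 118 were recovered for the 3 fits, with 11, 12 and 7 false calls. These counts describe the simulation only, since 6161 genes were called in the data between PTS2 and whole kidney. Shares of summed TPM have no test. Gene coordinates are from GENCODE M21 (10 of 10 members matched by gene ID) and promoter windows from RefSeq on GRCm38.p6.

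The members, lists and tests were chosen with earlier results of these data known. All members were named, and list genes where they share a member's step or differed beyond 1 on the log2 scale; other list genes were named for context after their values were seen. The lists were: other glycolytic genes (Hk3, Hkdc1, Gpi1, Aldoc, Tpi1, Gapdh, Gapdhs, Pgk1, Pgk2, Pgam2, Bpgm, Eno1, Eno2, Eno3, Pklr, Ldhc), flux regulators (Pfkfb1, Pfkfb2, Pfkfb3, Pfkfb4, Tigar, Pdk1, Pdk2, Pdk3, Pdk4, Pdp1, Pdp2, Gckr), pyruvate oxidation (Pdha1, Pdhb, Dlat, Dld, Pdhx, Mpc1, Mpc2), gluconeogenesis (Pck1, Pck2, Pcx, Fbp1, Fbp2, G6pc, Slc37a4) and the pentose phosphate pathway (G6pdx, Pgls, Pgd, Rpia, Rpe, Tkt, Taldo1). Some genes of these pathways are not reported here. Alternatives were other pseudocounts, filters, scalings and blocks, and each library left out in turn. Python 3.11.15, pandas 2.3.3 and matplotlib 3.10.9 were used.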

Additional observations from a re-analysis of the deposited data

Results flagged for a closer look

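Within each set of 4 tubules, a library was singled out if the step from it to the next value took up most of the spread of the set (Dixon's test). This was done for the members, 4 isozymes of the same steps, 2 isozyme shares and the thick ascending limb sum. Of 51 such tests, 10 stood out. A rate of 1 in 20 would give 2.55, but that rate holds for independent tests of values without ties. Hk2 and Hkdc1 had tied low values, and Pfkp and its share marked the same library. The 10 therefore cannot be compared with 2.55.

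Hk1 was at 10.06 TPM in replicate 3 of m3 (next 1.68 TPM), where the thick ascending limb markers summed to 1408 TPM (1408.4, next 16.5 TPM) and Pklr was low, at 5.34 TPM (next 6.39 TPM). In replicate 4 of m1 the limb markers summed to 54.97 TPM (next 10.3 TPM). In replicate 4 of m3 Pfkp was at 9.41 TPM (next 28.4 TPM) and its share of phosphofructokinase TPM was 20.03% (next 41.5%). Hk2 was at 0.03 TPM in replicate 2 of m2 (next 0.07 TPM). Hkdc1 peaked in replicate 1 of every set: m1 had 0.02 TPM, m2 had 0.07 TPM and m3 had 0.04 TPM, with at most 0.01 TPM in the next library. At these levels of Hk2 and Hkdc1 a few reads can set the value.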

How the results depend on the processing

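Without a filter on low values 9399 genes, and with a stricter filter of 10 TPM 3113 genes, were called between PTS2 and whole kidney, against 6161. Each had 7 members lower, but without the filter Pfkp was lost and Hk2, then tested, was called. Of the calls, 18.9% were higher in PTS2, and 31.6% with the stricter filter, 50.5% with median-of-ratios rescaling and 64.7% with quantile normalization. Members called lower were 4 with median-of-ratios rescaling (Pfkp, Aldoa and Ldhb lost) and 6 with quantile normalization, and Ldha was called higher in each fit. Of all genes, 5594 were called with median-of-ratios rescaling and 6437 with quantile normalization. Leaving out single libraries gave 4761 to 6712 genes, and 6 or 7 members lower.

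Among sets 341 genes were called, 196 without a filter, and 197 to 563 with single libraries left out (563 without m1 replicate 1, 220 without m2 replicate 2, and 197, 226 and 209 without m3 replicates 1, 2 and 3). Members called were 0, but 1 (Pgam1) with median-of-ratios rescaling or quantile normalization. Without m3 replicate 3, Hk1 had a mean too low to test among sets or numbers. Tubules sharing a replicate number had partly correlated deviations from their set means (r from 0.0254 to 0.273 over 12 pairs, mean 0.143, against -0.0481 over 36 other pairs), and 10 of 12 tubules correlated best with their own number. Taking deviations from the set mean ties the r of the other pairs to that of pairs sharing a number. The -0.0481 is therefore not an independent comparison. With a replicate block in the fit, 888 genes and 0 members were called among sets (2676 genes and 3 members at an unadjusted p under 0.05, limma), and 6292 genes with 7 members lower and 1 higher against kidney.

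Among replicate numbers 306 genes and 3 members were called; without a filter or without the set block 0 and 0. Leaving out single libraries gave 75 to 507 genes and 1 to 3 members (151 and 75 genes without m1 replicates 1 and 4, 108, 507 and 153 without m2 replicates 1, 2 and 4, and 182, 201 and 110 without m3 replicates 1, 2 and 4). The cause of these changes was not tested. The mean Ldha share in PTS2 moved between 56.8% and 58.2% and in kidney between 42.8% and 44.7% when single libraries were left out, and the Pfkp share between 38.2% and 41.7% and between 40.3% and 44.4%. Depth is unknown, so it could not be tied to any of these values.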
